A study of Mus musculus with 8 samples.

Results

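The genes described here are 48 of the 32285 genes listed in single-cell libraries of mouse liver. They encode the proteins that copy DNA in S phase of the cell cycle, from the factors that license replication origins to the enzymes that supply nucleotides and the regulators that open S phase. They were listed by name, with no threshold on a measured value. Livers were taken from 8 mice, females of the strain C57BL/6J aged 9 weeks. The 4 Control mice (replicates 1 to 4) were untreated, and the 4 BG mice (replicates 5 to 8) had received 1.2 mg of the soluble β-glucan odetiglucan (BG) intravenously 2 days before. Each mouse gave 1 droplet (10x Genomics) library of CD45+ liver cells, to which cells recovered by gradient from the remaining fraction had been added. The comparison asks which liver cells changed their RNA of the replication genes after BG.

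Before a cell copies its DNA, the origin recognition complex, Cdc6 and Cdt1 load the ring of Mcm2 to Mcm7 onto origins. At the start of S phase, Mcm10, Cdc45 and the GINS complex turn that ring into the working helicase. Polymerase α with primase starts each strand, polymerases δ and ε extend it on the sliding clamp Pcna, and ribonucleotide reductase, thymidylate synthase and thymidine kinase keep the supply of deoxynucleotides. Many of these genes are transcribed by E2F factors late in G1. Resting lymphocytes and Kupffer cells (KCs), the resident macrophages of the liver, divide rarely, and both can enter the cycle when stimulated.

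The libraries held between 39612380 and 60654583 unique molecular identifiers (UMIs, each a counted RNA molecule), and 53654 cells were kept, between 4644 and 8378 per mouse. BG replicate 5 stood apart in its raw library, where 66.6% of UMIs were mitochondrial, so counts were also made without it. Libraries shared between 6 and 31 barcodes, at most 0.457% of the smaller of a pair. Cells were assigned to classes by marker genes, and 13299 cells (24.8%) with markers of more than 1 lineage were left out of the classes as mixed. The classes held 18034 T cells, 3471 NK and ILC1 cells, 8404 B cells, 5120 sinusoidal endothelial cells and 339 Kupffer cells. Of the Kupffer cells, 77.6% held a UMI of Clec4f, 95.3% of C1qa and 1.47% of the T cell gene Cd3e. Levels are in CPM, the gene's UMIs over those of all genes, summed over the cells of a class in 1 mouse and scaled to the same total in each. Such a sum cannot tell more expressing cells from more RNA per cell. A gene was called where its log2 fold change passed 0.5 in size and its adjusted p passed 0.05, by edgeR's quasi-likelihood test with Benjamini-Hochberg adjustment over all tested genes of the class. Each mouse is 1 library, so the p-values measure the spread between mice with its technical part.

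In T cells, the replication genes rose together after BG. Of the 48 genes, 46 were called higher, against 3.51% of the 11011 genes tested in T cells, and none was called lower. In 47 of the 48, each BG mouse lay above each Control mouse, which held for 8.03% of all tested genes. The median log2 fold change was 1.37 over the 48 genes and -0.01 over all tested genes. The remaining 2 genes, Usp1 and Slbp, passed the adjusted p but not the limit of fold. Every tested gene of the list had a log2 fold change above 0, from 0.34 for Slbp, which binds histone mRNA, to 2.53 for Chek1, the checkpoint kinase of stalled forks.

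The licensing and helicase genes were all called in T cells (14 of 14), with a median log2 fold change of 1.58. Mcm2, a subunit of the helicase ring, stood at 26.3, 32.7, 27.8 and 31.2 CPM in the T cells of Control replicates 1 to 4 and at 64.5, 63.6, 98.8 and 76.4 CPM in BG replicates 5 to 8. The lowest BG mouse was above the highest Control mouse, and the log2 fold change was 1.37 ± 0.13 (SE; edgeR adjusted p = 3.09e-05). Mcm4, its partner in the ring, stood at 33.4, 37.9, 33.8 and 37.2 CPM in Control and at 68.2, 68.6, 90.6 and 68.4 CPM in BG mice. These groups did not overlap either, with a log2 fold change of 1.06 ± 0.10 (edgeR adjusted p = 2.87e-06). On GRCm38, Mcm2 lies on chromosome 6 at 88883474 to 88898780 and Mcm4 on chromosome 16 at 15623897 to 15637400, both on the minus strand. The other ring subunits had log2 fold changes of 1.57 for Mcm3, 1.68 for Mcm5, 1.25 for Mcm6 and 1.41 for Mcm7. Changes were larger still in genes with few UMIs. Cdc6, the ATPase that loads the ring, had a mean of 2.20 ± 1.04 CPM (SD, n = 4) in Control and 11.1 ± 4.15 CPM (n = 4) in BG mice, a log2 fold change of 2.45. Orc1, the largest subunit of the origin recognition complex, went from 0.621 ± 0.289 to 3.14 ± 0.448 CPM (n = 4 each), a log2 fold change of 2.41.

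The polymerase genes were also all called in T cells (7 of 7, median log2 fold change 1.06). Pole, the catalytic subunit of polymerase ε on the leading strand, stood at 1.83, 3.14, 2.54 and 2.40 CPM in Control and at 10.3, 8.41, 16.1 and 12.2 CPM in BG mice. Its BG values all lay above the Control values, with a log2 fold change of 2.28 ± 0.23 (edgeR adjusted p = 5.41e-06). Pola1, which starts new strands with primase, stood at 8.09, 9.26, 10.1 and 11.2 CPM in Control and at 21.0, 19.6, 32.3 and 25 CPM in BG mice. It did not overlap either (log2 fold change 1.36 ± 0.16, edgeR adjusted p = 3.81e-05). On GRCm38, Pole lies on the plus strand of chromosome 5 at 110286306 to 110337474 and Pola1 on the minus strand of chromosome X at 93304767 to 93632155. Prim2, the large subunit of primase, was the gene of the list with overlapping groups: BG replicate 5, at 6.72 CPM, lay below Control replicates 3 and 4, at 8.03 and 7.03 CPM. It was still called, with a log2 fold change of 0.76.

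All 9 genes of the clamp, its loader and Okazaki fragment joining were called, with a median log2 fold change of 1.03. Pcna, the clamp itself, stood at 160, 156, 143 and 150.0 CPM in Control and at 229, 209, 277 and 288 CPM in BG mice. The groups were apart, and the log2 fold change was 0.72 ± 0.10 (edgeR adjusted p = 7.17e-05). Rfc5, a subunit of the clamp loader, stood at 8.67, 11.4, 8.60 and 9.59 CPM in Control and at 18.1, 17.9, 25.1 and 18.7 CPM in BG mice. Again no BG mouse reached down to a Control mouse (edgeR adjusted p = 4.89e-05). Rfc1, the large subunit of the loader, was higher by less, with a log2 fold change of 0.54, and Lig1, the ligase that seals Okazaki fragments, by 1.67 on the log2 scale.

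Of the nucleotide supply, 5 of 5 genes were called in T cells (median log2 fold change 1.11). Rrm1, the large subunit of ribonucleotide reductase, stood at 22.7, 27.9, 29.7 and 27.3 CPM in Control and at 45.8, 41.1, 53.7 and 59.0 CPM in BG mice. The groups did not overlap (log2 fold change 0.90, edgeR adjusted p = 6.35e-05). Rrm2, the small subunit, which is limiting in S phase, had a log2 fold change of 1.6 ± 0.3 (edgeR adjusted p = 0.0181).

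Of the chromatin genes, 4 of 5 were called (median log2 fold change 1.77). Chaf1a, of the assembly factor that places histones behind the fork, stood at 3.66, 5.29, 5.22 and 5.43 CPM in Control and at 17.6, 14.4, 22.7 and 17.8 CPM in BG mice. It had the smallest p of the list in T cells, with a log2 fold change of 1.91 ± 0.17 (edgeR adjusted p = 1.07e-06) and no overlap. Uhrf1, which brings the maintenance DNA methyltransferase to new DNA, had a log2 fold change of 2.03.

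Of the regulators and checkpoint genes, 7 of 8 were called (median log2 fold change 1.55). Rmi2, of the complex that resolves joined DNA strands, stood at 6.36, 5.95, 5.50 and 6.55 CPM in Control and at 16.2, 15.8, 27.2 and 19.1 CPM in BG mice. All BG mice were above all Control mice (log2 fold change 1.68 ± 0.17, edgeR adjusted p = 1.12e-05). Clspn, the adaptor through which Chek1 is activated, stood at 10.4, 8.76, 13.2 and 10.7 CPM in Control and at 26.2, 21.1, 31.5 and 35.0 CPM in BG mice. Its groups were apart too (log2 fold change 1.40 ± 0.16, edgeR adjusted p = 4.89e-05). E2f1, a transcription factor of S phase genes, had a log2 fold change of 2.26, and Ccne1, the cyclin of the step into S phase, one of 1.42. Usp1, a deubiquitinase that acts on Pcna, had a mean of 45.2 CPM in Control and 60.8 CPM in BG mice, a log2 fold change of 0.43 under the limit. Among the BG mice, replicate 7 was highest in 37 of the 48 genes, and replicate 5 or 6 was lowest in all 48. Without replicate 5 the count in T cells was again 46, and without replicate 7 it was 39. In NK and ILC1 cells it was 27 of 39 tested genes without replicate 5.

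**Figure D1:**
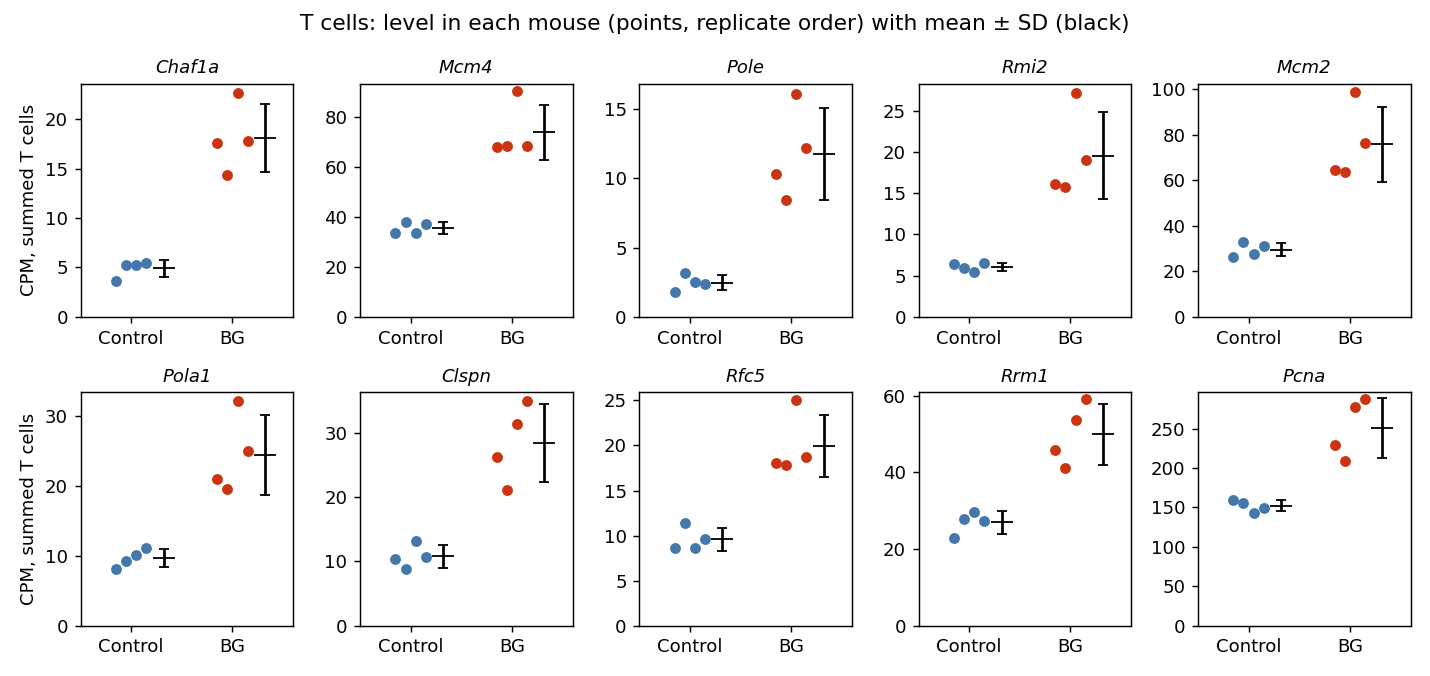
Level in T cells (CPM of the summed UMIs, y axes from 0) of the 10 replication genes with the smallest p, for 4 Control mice (blue) and 4 BG mice (red), with mean ± SD in black. In each panel the lowest red point lies above the highest blue point, as for Pcna at 209 against 160 CPM.

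NK and ILC1 cells are innate lymphocytes of the liver, and this class was assigned by marker genes. In it, 28 of the 37 tested genes were called higher, against 2.92% of all 7707 tested genes, and none lower. In 26 of the 37 the BG mice all lay above the Control mice, which held for 6.20% of all tested genes. The other 11 genes did not pass the filter on low counts. That filter can be met by the BG mice alone, so the count over tested genes leans towards genes that were higher in BG. With no filter, all 48 were tested and 35 were called, a count to which the 2.92% of the filtered genes does not apply. Mcm7, of the helicase ring, stood at 30.9, 28.2, 23.3 and 33.7 CPM in Control and at 89.4, 60.9, 105 and 90.2 CPM in BG mice. These values did not overlap, with a log2 fold change of 1.58 ± 0.17 (edgeR adjusted p = 8.05e-08). Mcm3 stood at 20.8, 32.4, 22.4 and 28.4 CPM in Control and at 79.6, 54.0, 94.6 and 76.5 CPM in BG mice (log2 fold change 1.63). Lig1 stood at 21.3, 31.0, 15 and 28.4 CPM in Control and at 67.0, 58.9, 77.7 and 69.3 CPM in BG mice (log2 fold change 1.59). Uhrf1 stood at 5.80, 5.63, 7.48 and 10.5 CPM in Control and at 30.7, 22.6, 43.1 and 41.2 CPM in BG mice (log2 fold change 2.29). In all 3 genes the groups were apart.

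By role, NK and ILC1 cells had 8 licensing genes called, which were all of the 8 tested out of 14 listed. Called as well were 5 of 5 nucleotide genes, 4 of 6 tested polymerase genes (7 listed) and 4 of 9 genes of the clamp and Okazaki fragments. Of all tested genes, 2.92% were called. Where a role has untested genes, its share rests on a filter that the BG mice alone can meet. The roles are therefore not a like comparison. The members of the loader at the low end were Rfc1, with a log2 fold change of 0.28, and Rfc2, and neither was called. The difference between the responses of T cells and of NK and ILC1 cells was tested in 1 fit with mouse as a block. It called 0 of the 48 genes, also with no limit of fold (3 at an unadjusted p under 0.05), and the median difference was 0.01 on the log2 scale. Of all 10478 tested genes, 3 (0.0286%) were called with a higher response in T cells and 9 in NK and ILC1 cells. With no limit of fold these were 9 and 58. Genes that had not passed the filter in NK and ILC1 cells entered this fit through their counts in T cells. Standard errors of the difference were wide for genes with few UMIs, such as 0.85 for Orc1 and 0.60 for Cdc6. The test therefore cannot show that the responses were alike over the whole list. The median log2 fold change over the 37 tested genes was 1.18 in NK and ILC1 cells. Their summed level of 12 T cell markers was between 2031 and 2337 CPM in Control and between 1268 and 1701 CPM in BG mice. Each BG mouse lay below each Control mouse. In T cells this sum was between 5600 and 6333 CPM in Control and between 5109 and 5471 CPM in BG mice. In B cells it was at most 74.9 CPM in Control and 94.7 CPM in BG mice. The share of T cells within the NK and ILC1 class was not tested, so its calls are those of the class as assigned.

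**Figure D2:**
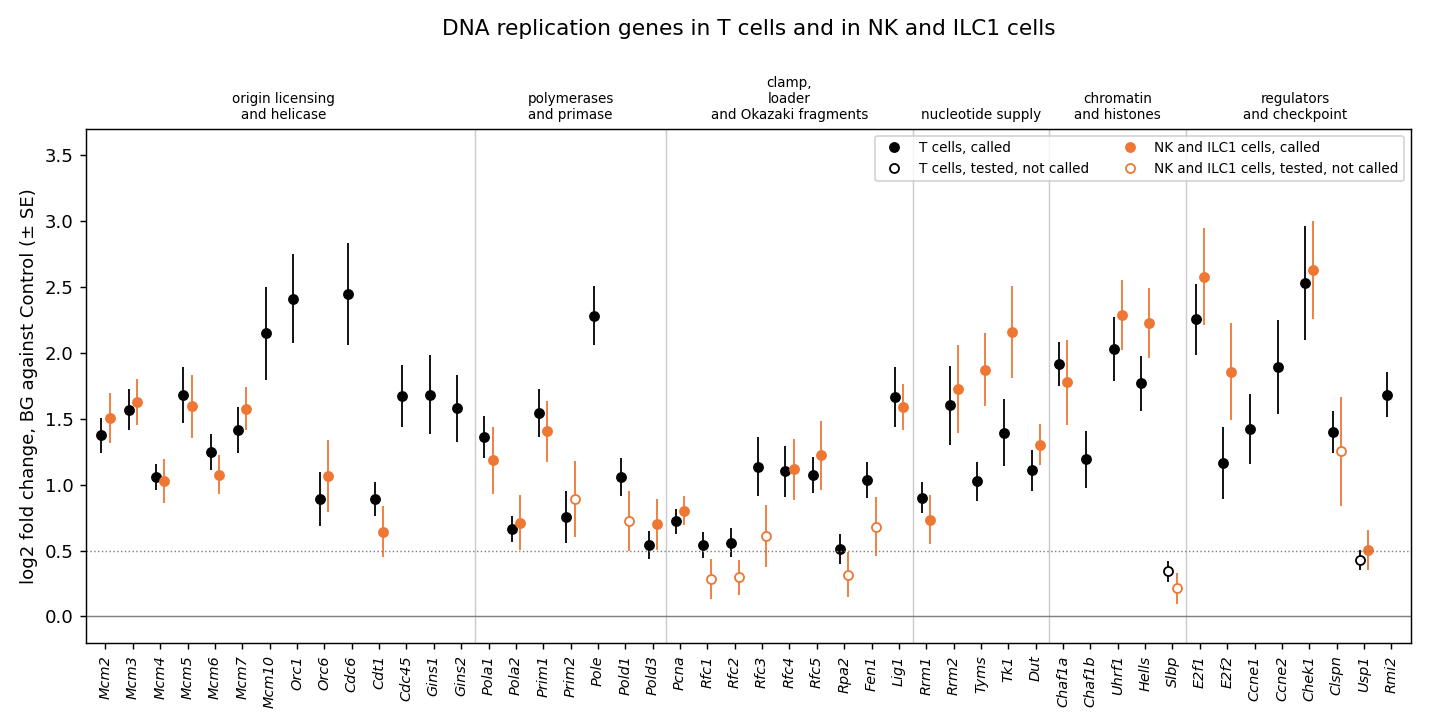
Log2 fold change (BG against Control, ± SE from edgeR) of the 48 genes ordered by role, in T cells (black) and in NK and ILC1 cells (orange), 4 mice per group. Filled points were called and open points were tested but not called, and the dotted line is the fold limit of 0.5. All points lie above 0, from 0.34 to 2.53 in T cells and from 0.21 to 2.63 in NK and ILC1 cells.

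Within T cells, the classes are subsets of the same cells in the same mice, so their counts do not add independent mice. NKT-like T cells (6188 cells) had 36 of 46 tested genes called higher (2.64% of all tested genes) with a median log2 fold change of 1.48. Their Mcm2 stood at 26.4, 38.1, 31.7 and 28.8 CPM in Control and at 67.2, 72.2, 108 and 89.6 CPM in BG mice. Their Pole stood at 1.43, 3.27, 2.35 and 1.67 CPM in Control and at 12, 8.81, 21.4 and 13.8 CPM in BG mice. Neither gene overlapped between groups, and the log2 fold changes were 1.48 and 2.76. Chaf1a, at 1.97, and Mcm3, at 1.74 on the log2 scale, were the other genes of smallest p there, with no overlap.

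CD4 T cells with a UMI of Cxcr6 (599 cells), a receptor of T cells that stay in the liver, had 15 of 20 tested genes called. Of all tested genes, 4.13% were called. With no filter on low counts, 28 of the 48 were called in these cells, a count to which that share does not apply. Mcm2 in them stood at 34.8, 33.8, 13.4 and 29.3 CPM in Control and at 134, 137, 134 and 129 CPM in BG mice, a log2 fold change of 2.16 ± 0.28 (edgeR adjusted p = 1.03e-07). Mcm6 stood at 37.7, 54.1, 20.1 and 44.0 CPM in Control and at 134, 144, 155 and 177 CPM in BG mice (log2 fold change 1.99). Both genes were far apart between the groups. Lig1 stood at 20.3, 33.8, 0 and 36.6 CPM in Control and at 109, 116, 116 and 138 CPM in BG mice (log2 fold change 2.45). Dut, which keeps uracil out of DNA, stood at 58.0, 122, 53.7 and 58.6 CPM in Control and at 193, 219, 187 and 195 CPM in BG mice (log2 fold change 1.49). Those groups did not overlap either, though the Control mice held only 53 to 110 such cells each.

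CD4 T cells without a UMI of Cxcr6 (976 cells) had 1 of 21 tested genes called, against 0.759% of all tested genes. That gene was Mcm6, at 28.5, 39.0, 82.5 and 49.5 CPM in Control and 83.5, 77.0, 117 and 131 CPM in BG mice. The groups overlapped at BG replicate 6, which lay below Control replicate 3 (log2 fold change 1.12, edgeR adjusted p = 0.0245). Mcm2, Mcm7 and Mcm5 had log2 fold changes of 0.80, 0.66 and 0.62 and were not called. The median log2 fold change over tested genes was 0.23 without Cxcr6 and 1.52 with it, and the difference between these 2 classes was not tested. These medians are over different sets of 21 and 20 genes, each left by a filter that the BG mice alone can meet. They are therefore not a like comparison. A Cxcr6 UMI is found more easily in a cell with more UMIs, and the part of that in these values was not tested.

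CD8 T cells (1968 cells) had 12 of 31 tested genes called, against 1.18% of all tested genes, with a median log2 fold change of 0.75. Mcm5 in CD8 T cells stood at 24.7, 24.5, 13.4 and 15.9 CPM in Control and at 61.3, 49.8, 60.8 and 65.5 CPM in BG mice (log2 fold change 1.57). Hells, a chromatin remodeller of dividing lymphocytes, stood at 9.89, 4.09, 6.70 and 5.78 CPM in Control and at 31.4, 18.1, 57.7 and 34.9 CPM in BG mice (log2 fold change 2.31). Neither overlapped. Mcm2 and Mcm3 followed, with log2 fold changes of 1.52 and 1.05 and no overlap. The response of NKT-like T cells against that of CD8 T cells differed by a median of 0.48 on the log2 scale. This median is over the 45 genes that passed the filter of their joint fit. Of these, 0 were called, with and without the limit of fold. At an unadjusted p under 0.05 there were 16 of the 45, of which 15 were larger in NKT-like T cells. Of all 8370 tested genes, 2 (0.0239%) were called with a higher response in NKT-like T cells and 3 in CD8 T cells. With no limit of fold these were 20 and 3. Gamma delta T cells (837 cells) had 9 of 15 tested genes called, against 1.95% of all. Lig1 in them stood at 8.65, 8.75, 23.3 and 15 CPM in Control and at 99.3, 69.2, 57.6 and 51.9 CPM in BG mice, apart, with a log2 fold change of 2.23. Mcm3 and Mcm7, both apart, had log2 fold changes of 1.73 and 1.55, and Mcm5 one of 1.91 with overlapping groups. The T cells that fell in none of these subsets (7401 cells) had 34 of 45 tested genes called, against 2.23% of all. Their genes of smallest p were Mcm6, Mcm4, Rmi2 and Mcm2, with log2 fold changes of 1.39, 1.03, 1.84 and 1.21.

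In B cells, 1 of 30 tested genes was called higher, against 1.24% of all tested genes, a share near that background. That gene was Clspn, at 9.11, 7.92, 8.11 and 12.1 CPM in Control and 22.9, 19.2, 22.3 and 9.51 CPM in BG mice. BG replicate 8 lay among the Control mice (log2 fold change 0.93 ± 0.25, edgeR adjusted p = 0.0432). Mcm3 in B cells had a log2 fold change of 0.6 with the BG mice above the Control mice (edgeR adjusted p = 0.0773) and was not called. Mcm5 had one of 0.49, and Mcm2 one of -0.35. Rfc1 stood at 98.0, 92.1, 91.0 and 82.1 CPM in Control and at 78.5, 74.0, 81.7 and 71.7 CPM in BG mice, each BG mouse below each Control mouse, with a log2 fold change of -0.26 (edgeR adjusted p = 0.368). The response of T cells was larger than that of B cells in 24 of the 48 genes, against 0.736% of all tested genes, and smaller in none, in a fit with mouse as a block. For Mcm2 the difference of the log2 fold changes was 1.70 ± 0.20 (edgeR adjusted p = 2.96e-09), and for Lig1 1.43, Mcm7 1.12, Mcm6 1.04 and Rfc1 0.79.

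In KCs, the numbers were small, with 151 cells from Control mice, 11 of them from replicate 1, and 188 from BG mice. Of the list, only Pcna passed the filter on low counts, and it was called higher, against 0.586% of the 1365 tested genes. Pcna stood at 265, 138, 168 and 211 CPM in the KCs of Control mice, from 3, 6, 19 and 15 UMIs, and at 512, 399.5, 481 and 467 CPM in BG mice, from 44, 19, 64 and 42 UMIs. The groups did not overlap (log2 fold change 1.36 ± 0.28, edgeR adjusted p = 0.0064), and without Control replicate 3 the gene was no longer called, at a log2 fold change of 1.31. The UMIs of the 48 genes summed per KC class gave 940, 1014, 710 and 797 CPM in Control and 1610, 2101, 2450 and 1763 CPM in BG mice, which are apart. The 12 T cell markers summed to between 316 and 940 CPM in Control KCs and between 179 and 531 CPM in BG KCs. In B cells the same sum was lower, between 49.8 and 74.9 CPM in Control and between 33.1 and 94.7 CPM in BG mice. The test of T cells against Kupffer cells called 0 of the 47 genes in either direction. Of all 10472 tested genes, 0 (0%) were called more in T cells and 3 more in KCs. Pcna, the only gene of the list at an unadjusted p under 0.05, differed by -0.75 ± 0.35 on the log2 scale. The other genes had not passed the filter in KCs and entered through their counts in T cells. Their standard errors were wide, such as 0.75 for Mcm2 and 5.69 for Pole. This test therefore cannot show that the 2 responses were alike.

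Other classes had no call among the tested genes by edgeR, nor by DESeq2. These were 0 of 24 in sinusoidal endothelial cells (1.12% of all tested genes), 0 of 19 in conventional dendritic cells (0.231%), 0 of 11 in monocytes and monocyte-derived macrophages (1.14%), 0 of 8 in plasmacytoid dendritic cells (0.464%) and 0 of 6 in bile duct cells (0.153%). In sinusoidal endothelial cells the log2 fold changes ran from -0.23 to 0.26, with 0 genes at an unadjusted p under 0.05. In conventional dendritic cells the median log2 fold change over the tested genes was 0.59, and 8 of the 19 had an unadjusted p under 0.05, all higher in BG. There were 2 such genes in monocytes and monocyte-derived macrophages, 1 in plasmacytoid dendritic cells and 1 in bile duct cells, the last 2 lower in BG. No gene of the list passed the filter in neutrophils. Over all cells kept, 35 of 48 genes were called higher, against 1.76% of all tested genes. No gene of the list was called lower in any class, where 0.357% of all tests over the classes were.

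**Figure D3:**
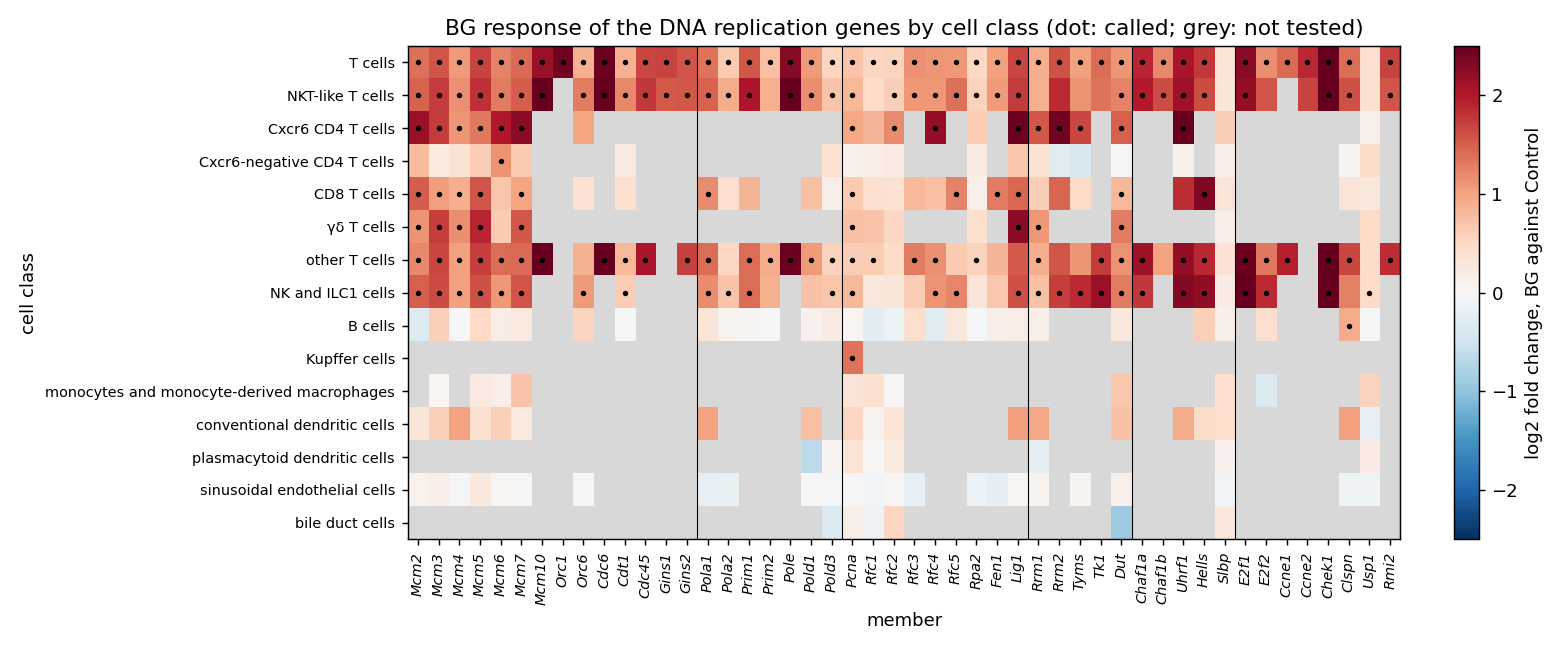
Log2 fold change (colour, BG against Control) of each of the 48 genes (columns, in the order of roles) in each cell class (rows). A dot marks a called gene and grey a gene that was not tested. Dots mark 46 genes in the row of T cells, 36 in NKT-like T cells, 34 in other T cells and 28 in NK and ILC1 cells. The rows of Cxcr6 CD4 (15 dots), CD8 (12) and gamma delta T cells (9) hold more grey. Those of CD4 T cells without Cxcr6 and of B cells hold 1 dot each, and that of sinusoidal endothelial cells none.

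The genes were then followed in single cells. Each cell with at least 1500 UMIs was thinned to 1500 UMIs, and cells in which 4 or more of the 48 genes were detected were counted. This left out 12.8% of Control cells and 8.38% of BG cells. In T cells, 3.81, 4.64, 3.68 and 3.7% of the cells of Control mice and 12.7, 13, 23.7 and 17.2% of those of BG mice were of this kind. The groups did not overlap, with means of 3.96% ± 0.458 and 16.6% ± 5.12 (SD, n = 4 each), a ratio of 4.21. Without thinning the ratio was 2.43. In NK and ILC1 cells the shares were 4.56, 4.01, 4.01 and 6.33% in Control and 17.5, 13.5, 20.4 and 16.7% in BG mice, also apart. Without thinning these overlapped, with Control replicate 1 at 24.3% and BG replicate 5 at 24.0%.

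Cxcr6 CD4 T cells had the highest share after BG. It was 4.63, 5.56, 3.7 and 3.92% in Control and 22.7, 19.1, 34.3 and 32.2% in BG mice, a ratio of the means of 6.08. The gate on Cxcr6 was applied before thinning, and a Cxcr6 UMI is found more easily in a cell with more UMIs. The part of that in the shares of CD4 T cells with and without Cxcr6 was not tested. NKT-like T cells went from a mean of 4.25 to 18.3%, gamma delta T cells from 5.72 to 17.8% and CD8 T cells from 3.14 to 12.2%, each with the groups apart. Without thinning, gamma delta and CD8 T cells overlapped (CD8 Control replicate 1 at 31.4%, BG replicate 5 at 16.9%), while T cells as a whole, NKT-like and Cxcr6 CD4 T cells stayed apart. CD4 T cells without Cxcr6 overlapped, at 7.48, 4.04, 4.80 and 8.16% in Control and 7, 8.94, 16.2 and 15.7% in BG mice. In B cells the shares were 2.86, 3.72, 3.07 and 2.85% in Control and 4.09, 4.03, 3.04 and 4.24% in BG mice, which overlapped. Plasmacytoid dendritic cells had means of 0.794 and 1.21%, the lowest of the classes shown, and sinusoidal endothelial cells 2.53 and 3.50% with overlap. In KCs, where Control replicate 1 had too few cells, the counts were 1 of 17, 1 of 40 and 0 of 29 cells in Control and 6 of 29, 3 of 15, 12 of 40 and 2 of 23 in BG mice. Their shares were apart, but overlapped with at most 2500 genes per cell. The 0 of 29 allows a share of up to 10.3%, and such limits cover counting error only. Conventional dendritic cells had 9.09, 5.06, 11.5 and 6.45% in Control and 18.2, 15.8, 13.3 and 20.0% in BG mice, apart, though none of their genes was called. These groups overlapped under each of the 6 other settings tried.

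**Figure D4:**
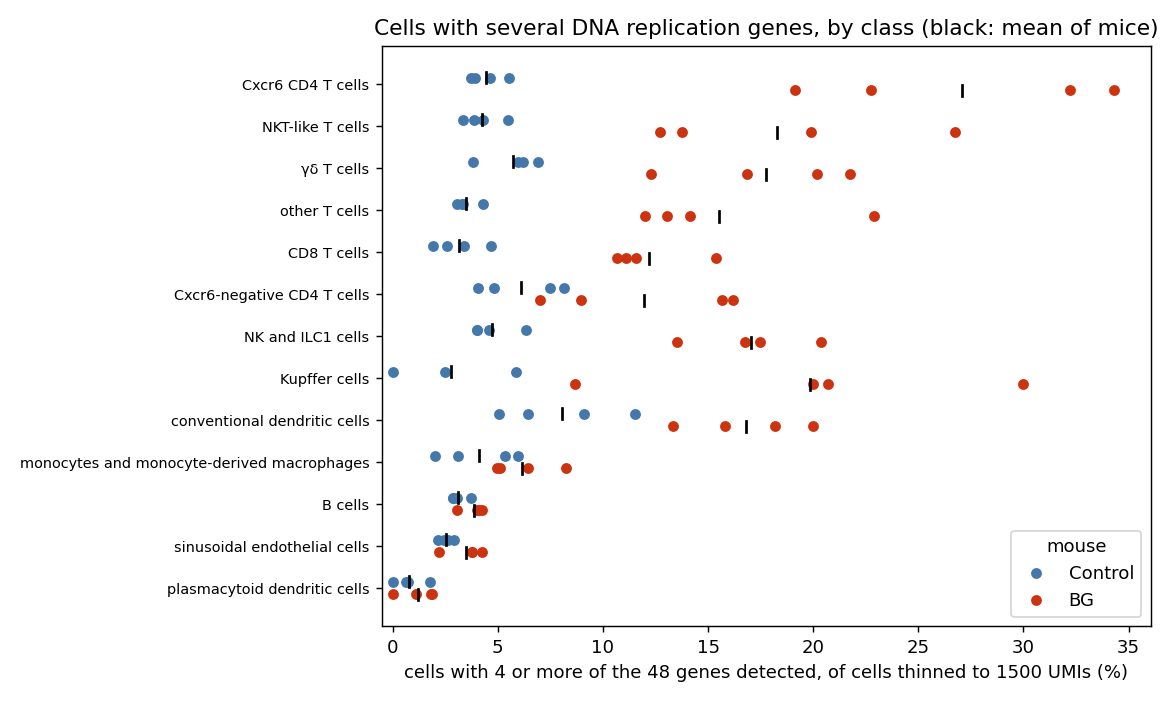
Share of cells (percent, x axis) with 4 or more of the 48 genes detected after thinning to 1500 UMIs, for each mouse (blue Control, red BG) and class, with the mean of mice as a black bar. In T cell subsets and NK and ILC1 cells the red points lie to the right, up to 34.3% in Cxcr6 CD4 T cells, except that CD4 T cells without Cxcr6 overlap, while B cells reach at most 4.24%. In Kupffer cells (without Control replicate 1) the lowest red point is at 8.70% and the highest blue at 5.88%. In conventional dendritic cells these are at 13.3 and 11.5%.

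The cells with 4 or more of the genes carried most of the list's RNA in BG T cells. They held 28.7% of its UMIs in Control and 62.8% in BG T cells, and 22.8 and 63.8% in NK and ILC1 cells, against 14.1 and 23.3% in B cells. These are UMIs before thinning, in cells with at least 1500 UMIs, with the mice of a group pooled. The cells were chosen for holding these same genes, so a large share is partly set by that choice. In BG mice these T cells had a median of 4924 UMIs and 1762 genes before thinning, the other T cells 3087 UMIs and 1210 genes. Of them, 13.8% had over 2500 genes, against 1.29% of the other BG T cells, so a limit of 2500 genes per cell removes more of these cells than of others. With that limit, 38 of the 48 genes were called in T cells. Of the T cells with 4 or more of the genes, some also held 2 or more genes of the G2 and M phase list. Their share was 37.1, 49.0, 44.9 and 44.3% in Control and 54.2, 47.6, 54.9 and 61.3% in BG mice. The groups overlapped, with BG replicate 6 below Control replicate 2. Over pooled mice it was 43.7% in Control and 55.2% in BG, against 12 and 15.4% of the other T cells. A cell held at most 19 of the 48 genes in Control and 18 in BG T cells.

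**Figure D5:**
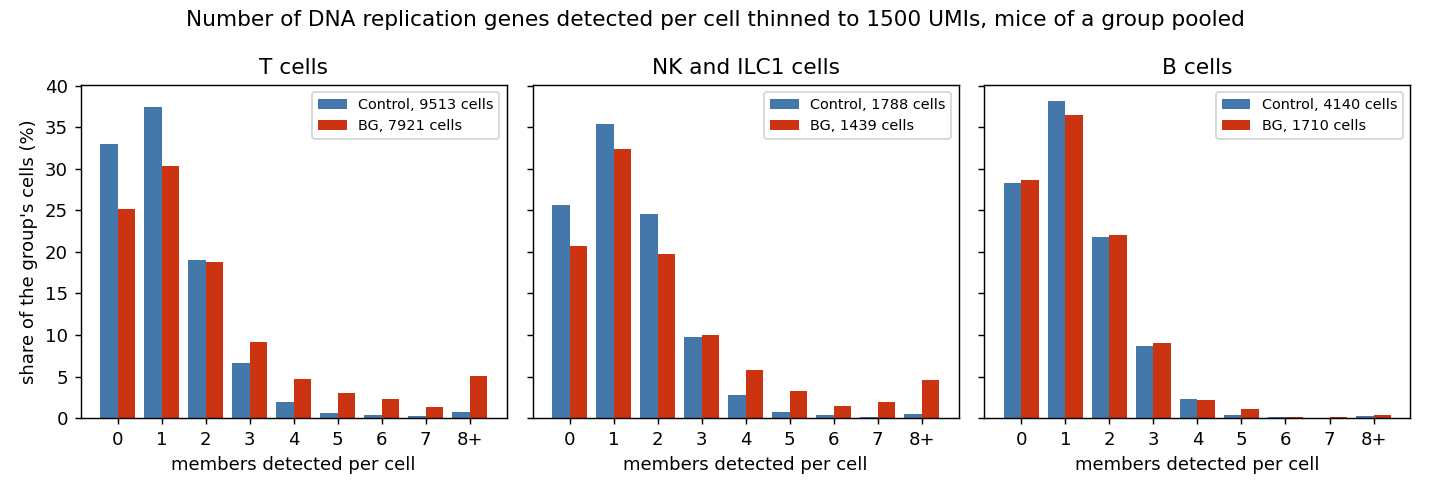
Share of cells (percent, bars from 0, mice of a group pooled) by the number of the 48 genes detected per cell after thinning to 1500 UMIs, in T cells, NK and ILC1 cells and B cells (Control blue, BG red). In T cells the class of 8 or more genes holds 0.767% of Control and 5.08% of BG cells, and in B cells 0.217 and 0.351%.

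Other genes of the cycle were counted from lists written for this comparison with earlier results known. In T cells, 15 of 33 other fork and origin genes were called higher, where 3.51% of all tested genes were, among them Timeless, which couples helicase and polymerase, at a log2 fold change of 1.37, and the loader gene Chtf18 at 1.66. Of 19 further nucleotide genes 7 were called, with Shmt2, a mitochondrial enzyme of one-carbon metabolism, at 0.64. Of 15 genes of chromatin copying 7 were called, with the maintenance methyltransferase Dnmt1 at 0.72. Of 27 genes of the step from G1 to S 7 were called, with the E2F repressors E2f7 at 2.37 and E2f8 at 1.84. Of 23 genes of replication stress and repair 18 were called, with Brca1 at 1.98 and the exonuclease Exo1 at 2.18. Of 34 genes of G2 and M phase 18 were called, with Aurkb, a mitotic kinase, at 1.23 and Tacc3, of the spindle, at 1.68. None of these lists had a gene called lower in T cells, and their medians ran from 0.39 for G1 to S to 1.11 for stress and repair, against -0.01 over all tested genes. In NK and ILC1 cells 15 of 23 tested genes of G2 and M phase were called, with the mitotic kinase Cdk1 at 2.05, against 2.92% of all tested genes, and in B cells no gene of any of the 6 lists was.

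The promoters of the list were searched for E2F words, since E2F factors are known to drive many of these genes. RefSeq sequence (GRCm38.p6) of the 250 bases before the start was at hand for 39 of the 48 genes. The words searched were TTTGGCGC, TTTGCCGC, TTTCGCGC and TTTCCCGC, on both strands. They were found in 9 of the 39 (23.1%), which were Cdc6, Hells, Mcm5, Mcm6, Mcm7, Orc1, Pola1, Rfc3 and Uhrf1. They were found in 2.16% of all 27025 promoters, and in 4.18% of those of the genes tested in T cells. The word CCAAT was in 56.4% of the matched genes and 41.0% of the genes tested in T cells, GGGCGG in 66.7 and 64.0%, and CACGTG in 12.8 and 10.1%. TTTGAA or TTCGAA was in 15.4 and 14.9%. No word of the search contains another. A match describes the letters in this window and is neither a binding site nor a cause. Stretches around the words are shown for 4 genes called in T cells (2 of the helicase ring, 1 polymerase and 1 chromatin gene), as examples of what the search found, 5′ to 3′ on the strand of the gene with the word in capitals. Mcm5 (chr8:75109311-75109408, plus strand) holds it from 153 to 146 bases before the start, Mcm6 (chr1:128359706-128359860, minus strand) holds 2 between 110 and 40 bases before, Pola1 (chrX:93632241-93632338, minus strand) 138 to 131 bases before with the word on the opposite strand, and Uhrf1 (chr17:56304083-56304180, plus strand) 185 to 178 bases before. No annotated exon lies in these stretches. The stretch of Uhrf1 lies within the annotated gene (chromosome 17, 56303321 to 56323486), before a start inside it.
Mcm5: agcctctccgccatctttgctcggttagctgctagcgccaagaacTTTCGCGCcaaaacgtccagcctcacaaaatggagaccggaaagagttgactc
Mcm6: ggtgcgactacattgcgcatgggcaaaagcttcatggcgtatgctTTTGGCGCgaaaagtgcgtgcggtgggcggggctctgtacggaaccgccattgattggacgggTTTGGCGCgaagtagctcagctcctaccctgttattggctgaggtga
Pola1: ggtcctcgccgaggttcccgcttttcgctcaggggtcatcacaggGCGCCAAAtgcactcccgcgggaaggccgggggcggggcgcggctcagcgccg
Uhrf1: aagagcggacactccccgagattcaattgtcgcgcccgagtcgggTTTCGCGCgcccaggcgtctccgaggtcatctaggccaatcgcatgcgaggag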

How the data were processed

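Single-cell RNA sequencing of liver cells was analysed for 4 Control and 4 BG mice. The authors deposited UMI counts, not normalized, 1 matrix per library, made per the file headers with Cell Ranger 6.1.2 on mm10, with introns included. Barcodes with 200 to 5000 genes and at most 30% mitochondrial UMIs were kept. A cell joined the lineage with at least 2 of its markers, and cells with at least 2 markers of a second lineage were left out as mixed, with no doublet caller. The genes, lists and tests were chosen with earlier results of these data known, and the marker sets were trimmed after their detection had been seen and before any comparison of groups.

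UMIs were summed per mouse and class (at least 10 cells per mouse, 3 mice per group), filtered with filterByExpr, scaled by TMM and tested in edgeR 4.0.16 (limma 3.58.1, R 4.3.3) by the robust quasi-likelihood test, with Benjamini-Hochberg adjustment over all genes of a class. Calls needed an adjusted p under 0.05 and a log2 fold change over 0.5. The fit was tested on simulated data. DESeq2 1.42.0 served as an alternative, as did other limits, gates and thinning. Differences between classes were fitted with mouse as a block. Cells were thinned with a fixed seed to 1500 UMIs. Named were the 10 genes of smallest p in the class with most calls, 4 in other classes with a call, a fixed set of genes whose folds may be given anywhere, the highest and lowest, and up to 5 per further list. Outside this rule, Prim2, Usp1, Slbp, Chek1, Orc1, Cdc6, Uhrf1 and Lig1 in T cells and Rfc2 in NK and ILC1 cells were named after their values had been seen. The labels name no batch. Tables were handled with Python 3.11.15, numpy 2.4.6, scipy 1.17.1, pandas 2.3.3 and matplotlib 3.10.9. Depth limits the rarer classes most: genes with few UMIs there were not tested, and intervals cover counting error only.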

Additional observations from a re-analysis of the deposited data

Results flagged for a closer look

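Among 147 groups of 4 mice, 9 had a mouse far from the other 3 by Dixon's criterion, and chance alone gives about 1 in 20. In T cells, Control replicate 1 was low for Chaf1a at 3.66 CPM, and BG replicate 7 was high for Mcm4 at 90.6 CPM and for Rfc5 at 25.1 CPM. In Cxcr6 CD4 T cells, Control replicate 2 was high for Dut at 122 CPM, and in CD4 T cells without Cxcr6, BG replicate 7 was high for Mcm7 at 101 CPM. Control replicate 2 was high in the share of T cells with 4 or more replication genes, at 4.64%. For the UMIs of the 48 genes summed per class, Control replicate 4 was high in B cells at 920.1 CPM. In the same measure BG replicate 7 was low in conventional dendritic cells at 1127 CPM and high in neutrophils at 2202 CPM.

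The response to BG differed between T cells and B cells in 24 of the 48 genes, all larger in T cells, by an interaction term in edgeR with mouse as a block. The T cells and B cells came from the same mice. The cause was not tested.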

How the results depend on the processing

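No paired analysis was possible because Control replicates 1 to 4 and BG replicates 5 to 8 share no replicate number. Of the 48 genes, none was called lower in any class under any alternative tried. Shares of all tested genes called in a class were given for the main setting only. Counts of genes called higher moved by over 1.5 times in these cases, and the cause was not tested. With at most 2500 genes per cell they were 18 in NK and ILC1 cells, 0 in B cells and 23 over all cells. With the DESeq2 test they were 0 in B cells and 0 in CD4 T cells without Cxcr6. With each cell in its strongest lineage and mixed cells kept, they were 3 in B cells, 9 in KCs, 4 in sinusoidal endothelial cells, 4 in CD4 T cells without Cxcr6 and 16 in gamma delta T cells. With no T cell receptor UMI allowed they were 2 in B cells, and with no filter on low counts 1 in conventional dendritic cells and 28 in Cxcr6 CD4 T cells.

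Leaving out each mouse in turn gave 39 to 46 calls in T cells, 22 to 32 in NK and ILC1 cells, 32 to 41 in NKT-like T cells, 28 to 39 in other T cells, 14 to 22 in Cxcr6 CD4 T cells, 9 to 15 in CD8 T cells, 9 to 13 in gamma delta T cells and 24 to 40 over all cells. It gave 0 to 1 in B cells (0 without Control replicates 2 or 3 or BG replicates 5, 6 or 7), 0 to 1 in KCs (0 without Control replicate 3) and 0 to 2 in CD4 T cells without Cxcr6 (0 without Control replicates 1 or 2 or BG replicates 7 or 8, 2 without BG replicate 6). For T cells against B cells it gave 19 to 25, and for NKT-like against CD8 T cells 0 to 1 (1 without Control replicate 3 or BG replicate 8). Of the named genes, 17 values lost and 8 gained a call, mainly Clspn in B cells (8 settings) and Mcm6 in CD4 T cells without Cxcr6 (6 settings) and 539 stayed on their side of the threshold, called or not.

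The difference in the share of cells with several genes (BG minus Control, percentage points) stayed above 0 under each setting in T cells, their subsets, NK and ILC1 cells, B cells, KCs, monocytes and conventional dendritic cells. It turned in sinusoidal endothelial cells, at -0.095 with 6 or more genes and -0.083 at 1000 UMIs (3.20 in the strongest lineage), and in plasmacytoid dendritic cells, at -1.54 with 3 or more. In bile duct cells it turned from 1.10 to -2.72 at 1000 UMIs, under 3 other settings and without Control replicate 2 (-0.278), and in neutrophils under 3 settings, down to -2.38 without thinning. With 6 or more genes it was 7.39 in T cells, 8.24 in NKT-like, 3.18 in Cxcr6-negative CD4, 0.208 in B cells, 6.70 in NK and ILC1 cells, 15.1 in Cxcr6 CD4, 7.54 in gamma delta, 6.64 in other T cells, 5.18 in CD8 T cells and 4.33 in conventional dendritic cells. With 3 or more it was 26.6 in KCs, 11.8 in conventional dendritic cells, 11.3 in CD8 T cells and 9.85 in Cxcr6-negative CD4. Without thinning it was 21.7 in T cells, 16.8 in NK and ILC1 cells, 26.7 in NKT-like, 35.9 in Cxcr6 CD4, 16.0 in Cxcr6-negative CD4 and 20.5 in other T cells. At 1000 UMIs it was 7.43 in NK and ILC1 cells, 6.03 in CD8 T cells, 10.5 in KCs and 0.183 in B cells, and with at most 2500 genes 1.16 in conventional dendritic cells. Leaving out each mouse in turn, chosen after seeing the data for the summed levels, gave 10.3 to 14.0 points in T cells and 859 to 1094 CPM for the summed level.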
